A study of Mus musculus with 8 samples.

Results

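Cytosolic ribosomal protein genes were followed across 8 expression arrays of mouse malignant peripheral nerve sheath tumours. Members were the probe sets annotated to exactly 1 symbol that begins with Rpl, Rps or Rplp and a number. Kinases of the Rps6k family, symbols ending as pseudogenes (-ps) and Rps19bp1 were left out. Rps4l, which RefSeq lists as a transcribed pseudogene, has no such ending and is a member. Where a gene had several probe sets, the one of highest mean level was taken. This gave 61 genes of 19938. By the prefix of the symbol 35 were assigned to the large subunit, 3 to the ribosomal stalk, which is part of the large subunit, and 23 to the small subunit. The prefix does not establish that a gene's product is a ribosomal protein, and variants are counted with the subunit of their symbol. A further 20 ribosomal protein symbols, among them Rpl3, Rpl11, Rpl22l1, Rps16, Rps24 and Rps27, occur here on probe sets shared with another symbol and are therefore no members.

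The tumours were primary tumours of NPcis mice, which carry linked mutations of Nf1, a brake on Ras, and Trp53. Each group held 2 arrays: rapamycin at 5 mg/kg given intraperitoneally together with PD-0325901 by gavage, in 2 daily doses of 1.5 mg/kg each (the combination), rapamycin alone, PD-0325901 alone, and vehicle, all for 14 hours. Rapamycin inhibits the kinase complex mTORC1, and PD-0325901 inhibits MEK, the kinase above ERK. The labels do not say whether the arrays of a group come from separate animals, so p-values measure the spread between these samples only, which may be technical. With 2 arrays a group, precision is limited by their number.

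Ribosomal proteins join ribosomal RNA to form a small subunit, which decodes the message, and a large subunit, which joins amino acids. Their messages begin with a 5′ terminal oligopyrimidine element, called TOP: a C at the first base followed by an uninterrupted stretch of C and T. Through this element mTORC1, with the 4E-BP proteins and Larp1, controls how strongly the messages are translated, while ERK and mTORC1 also meet at Rps6, which their downstream kinases phosphorylate. Arrays measure the amount of message and not its translation. In a piece of tumour, fewer cells of a type and less RNA per cell cannot be told apart.

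The bases around the annotated start of a few members are shown because a TOP element begins at the first base of a message. RefSeq promoter windows (build GRCm38.p6) matched 49 of the 61 genes with 58 annotated starts. A C followed by at least 4 bases that are each C or T stood exactly at the start in 10 of the 58 windows (17.2%), against 823 of 32851 windows of all genes (2.51%). Each line gives 15 bases before and 15 bases from the annotated start, and capitals mark the pyrimidine run. Rps3 and Rps13 are printed for contrast, since no such run stands at their annotated start.
Rps15a (chr7:118116133-118116162, minus strand): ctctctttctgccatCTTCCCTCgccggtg
Rplp2 (chr7:141447636-141447665, plus strand): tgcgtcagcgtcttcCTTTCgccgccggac
Rps6 (chr4:86857353-86857382, minus strand): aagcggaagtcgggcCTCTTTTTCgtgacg
Rps10 (chr17:27635230-27635259, minus strand): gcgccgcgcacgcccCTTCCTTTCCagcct
Rps18 (chr17:33955651-33955680, minus strand): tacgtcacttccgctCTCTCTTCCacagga
Rps21 (chr2:180257364-180257393, plus strand): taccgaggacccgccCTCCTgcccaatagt
Rps3 (chr7:99483695-99483724, minus strand): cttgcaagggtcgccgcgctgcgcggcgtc
Rps13 (chr7:116334176-116334205, minus strand): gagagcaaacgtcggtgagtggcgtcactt

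An annotated start can lie upstream or downstream of the base most used. A window without the run therefore says only that these letters do not stand at that position. Capitals likewise mark a match of letters there, and which start is used was not tested. Within the whole window, from 250 bases before to 50 after the start, CCGGAAG, a binding sequence of ETS factors, was found on either strand in 19 of the 58 windows (32.8%), against 8.86% of all windows. The E-box CACGTG, searched the same way, was present in 12.1% of the members' windows, against 7.15% of all windows. TATAAA was present in 10.3%, against 13.6%. The windows' content of G and C had a median of 56.8% for the members, against 52.7% for all windows, and its part in these motif contrasts was not tested. The 3 motifs do not overlap in sequence, and a match is a description of the letters.

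The labels, the lists and the samples were checked first. Array medians lay between 7.79 and 7.90 on the log2 scale. Of 12 markers of Schwann cells and nerve sheath tumours 10 were measured, with summed log2 levels of 86.2 to 86.8 with the combination, 82.8 to 87.5 with rapamycin, 84.7 to 86.9 with PD-0325901 and 86.4 to 86.4 with vehicle. Among them Sox10 had values of 7.85 to 8.17 over the 8 arrays, S100b of 7.12 to 7.32, Sox9 of 10.30 to 11.28 and Nes of 8.42 to 11.74. Dusp6, a phosphatase that ERK signalling induces, averaged 10.26 ± 0.41 on the 4 arrays with PD-0325901 and 11.02 ± 0.40 on the 4 without it (SD; difference -0.76, SE 0.29, limma adjusted p = 0.485), and rapamycin array 1, at 10.58, overlapped the arrays with PD-0325901. Rapamycin array 1 stood apart in several lists. Its 7 proliferation markers had a median deviation of -0.66 from their means over all arrays, against -0.24 to 0.42 on the other 7 arrays, and its 7 endothelial markers one of 0.66, against -0.47 to 0.22. The part of these shifts in the values below was not tested.

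The members' probe sets were bright. Of the 61, 47 were among the brightest 10% of all genes, and 24 had a mean over 12. The range over the 8 arrays had a median of 0.35 for these 24, 0.52 for the 24 members with a mean of 10 to 12, and 0.53 for the 13 below 10. Rpl28, Rpl10 and Rplp1 had the narrowest ranges, of 0.16, 0.16 and 0.17. The widest were those of Rpl39l (3.84), Rps14 (1.21) and Rps4l (0.89). Brightness depends on the probes, so no level of a gene is set against that of another.

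Rapamycin was asked about first, since mTORC1 acts on these messages. The main effect is the mean of the rapamycin difference without and with PD-0325901, that is, 4 arrays with rapamycin against 4 without it. Of the 61 genes 55 were lower with rapamycin and 6 higher, where 53.8% of all genes were lower. The members' median difference was -0.11 (a ratio of 0.925), against -0.01 over all genes. For the 24 members with a mean over 12 it was -0.08, against -0.01 over the 208 genes with a mean over 12. It was -0.13 for the 24 members with a mean of 10 to 12 and -0.16 for the 13 below 10. All 23 small subunit genes were lower, with a median of -0.15, and 32 of the 38 large subunit and stalk genes, with a median of -0.08. The part of probe brightness in this contrast was not tested. In limma's fit of 4 group means 0 members and 0 of all genes passed an adjusted p of 0.05 (0% called). At an unadjusted p under 0.05, 7 members were lower and 0 higher, against 2.4% of all genes lower and 3.15% higher. The members' median difference was -0.18 without rapamycin array 2 and -0.05 without rapamycin array 1.

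**Figure D1:**
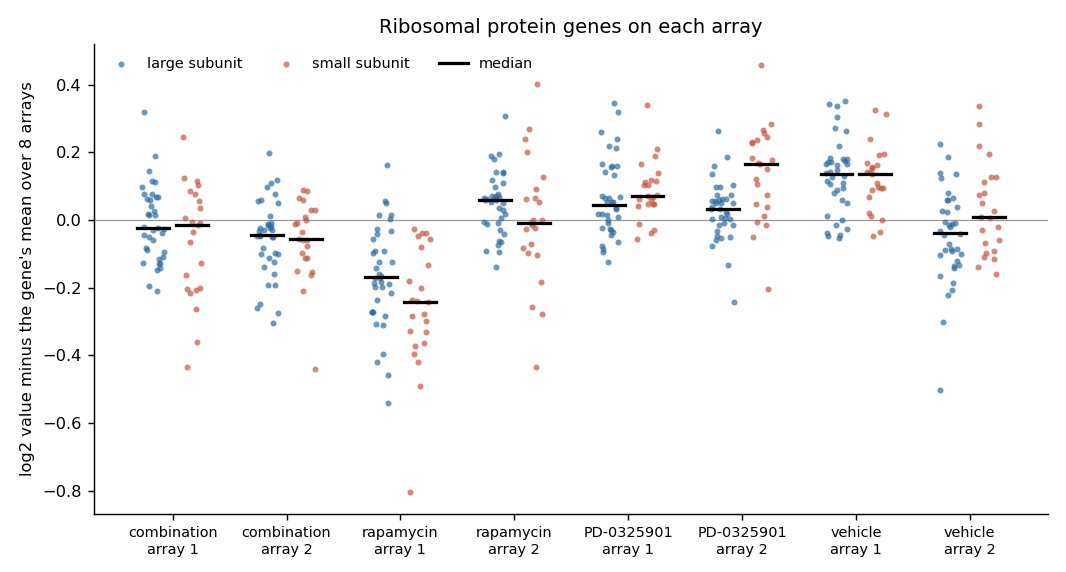
Log2 value of each ribosomal protein gene minus its mean over the 8 arrays, by array, for large subunit genes with the stalk (blue; the points of Rpl39l, which would widen the scale, are not drawn) and small subunit genes (red), with black lines at the medians of all 38 and 23 genes. The points on rapamycin array 1 lie lowest, with medians of -0.17 (large) and -0.24 (small), and those on vehicle array 1 are highest for the large subunit, at 0.14.

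The arrays within a group differed as well. The median deviation of the 61 members was -0.02 and -0.05 on the combination arrays, -0.19 and 0.05 on the rapamycin arrays, 0.06 and 0.05 on the PD-0325901 arrays, and 0.14 and -0.02 on the vehicle arrays. Rapamycin array 1 held the lowest value of 31 members and vehicle array 1 the highest of 24. Between the rapamycin arrays, 52 of 61 members were higher on array 2 (median of array 1 minus array 2 -0.23), and between the vehicle arrays 45 of 61 were higher on array 1 (0.14). The 7 fibroblast markers had median deviations of 0.41 and -0.49 on the rapamycin arrays and -1.26 and 0.32 on the vehicle arrays, opposite in order to the members in both groups. The 8 skeletal muscle markers had -0.68 and 1.77 on the rapamycin arrays and 0.12 and -0.69 on the vehicle arrays, in the same order as the members. Their part in the members' gaps was not tested. The members' median of array 1 minus array 2 was -0.02 with PD-0325901 and 0.004 with the combination. Their gaps within the rapamycin and vehicle groups are larger than the median rapamycin difference. Without rapamycin array 1 that median was -0.05 with 44 of 61 members lower, and without vehicle array 1 it was -0.07 with 46 of 61 lower. Of the small subunit genes 19 of 23 were lower without rapamycin array 1 (median -0.10), and of the large subunit and stalk genes 25 of 38 (median -0.04).

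For 7 members all 4 arrays with rapamycin lay below all 4 without it: Rps3, Rps4l, Rps12, Rps13, Rps15a, Rps20 and the stalk gene Rplp2. This is 7 of 61, where 1.94% of all genes were separated in this direction, and 0 members were separated the other way, where 1.41% of all genes were. Leaving out an array cannot undo a separation. Without rapamycin array 1, 7 of 61 members were separated downwards (11.5%), against 3.76% of all genes. Of the 7, 6 encode or resemble small subunit proteins.

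Rps4l is a copy of the small subunit gene Rps4x. Its log2 values were 8.79 and 9.21 on the combination arrays and 8.85 and 8.79 on the rapamycin arrays, against 9.56 and 9.68 on the PD-0325901 arrays and 9.38 and 9.50 on the vehicle arrays. All 4 rapamycin values lay below all others, with a main effect of -0.62 (SE 0.11, a ratio of 0.649; limma adjusted p = 0.752). Rps4x, the source gene, had a main effect of -0.11 (SE 0.11). Since the sequences are alike, signal of the one could reach probes of the other, which was not tested.

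Rps15a, a protein of the small subunit body, had values of 9.43 and 9.54 with the combination and 9.40 and 9.69 with rapamycin, against 9.79 and 9.92 with PD-0325901 and 9.83 and 9.91 with vehicle. Its main effect was -0.35 (SE 0.09, limma adjusted p = 0.752). Rps20, which sits in the head of the subunit near the path of the message, had 12.47 and 12.54 with the combination and 12.41 and 12.41 with rapamycin, against 12.73 and 12.85 with PD-0325901 and 12.62 and 12.72 with vehicle. The groups with rapamycin lay below the others, with a main effect of -0.27 (SE 0.07, limma adjusted p = 0.752). The step from combination array 2 to vehicle array 1 was smaller than the gap within the PD-0325901 group or the vehicle group.

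Rps13, a protein that helps bridge the subunits, had 10.47 and 10.48 with the combination and 10.39 and 10.62 with rapamycin, against 10.84 and 10.90 with PD-0325901 and 10.64 and 10.71 with vehicle. Rapamycin array 2 came within a small step of vehicle array 1, so the separation is narrow there, and the main effect was -0.28 (SE 0.08, limma adjusted p = 0.756). Rps3, which lines the entry of the message channel, had 11.22 and 11.38 with the combination and 11.02 and 11.48 with rapamycin, against 11.59 and 11.60 with PD-0325901 and 11.56 and 11.50 with vehicle. Its rapamycin arrays lay further apart than its main effect of -0.29 (SE 0.12, limma adjusted p = 0.894). The Rps3 separation is narrow as well, with rapamycin array 2 a small step below vehicle array 2. Without rapamycin array 1 the Rps3 difference was -0.17.

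Rplp2 encodes one of the acidic stalk proteins, which recruit the GTPase factors of translation. It had 8.99 and 8.996 with the combination and 9.06 and 9.15 with rapamycin, against 9.35 and 9.45 with PD-0325901 and 9.25 and 9.25 with vehicle. It was the only separated member of the large subunit, with a main effect of -0.28 (SE 0.07, limma adjusted p = 0.752). The other stalk genes did not share this: the main effect was -0.03 for Rplp0 (SE 0.07) and -0.02 for Rplp1 (SE 0.07), on probe sets with means of 12.81 and 13.31. Rps12 had 11.10 and 11.46 with the combination and 11.38 and 11.36 with rapamycin, against 11.53 and 11.71 with PD-0325901 and 11.55 and 11.59 with vehicle, a main effect of -0.27 (SE 0.10, adjusted p = 0.864).

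**Figure D2:**
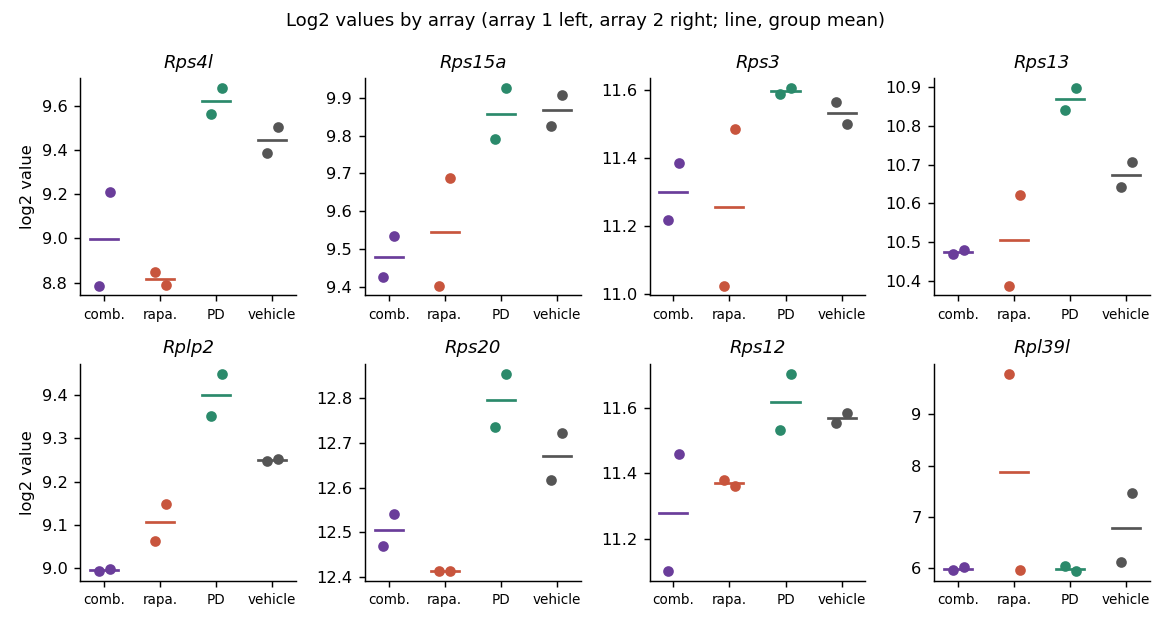
Log2 values of 8 genes by array, with points for array 1 (left) and array 2 (right) and a line at the mean of each group of 2 (comb., combination; rapa., rapamycin; PD, PD-0325901); the vertical scales differ and do not start at 0. For the first 7 genes every combination and rapamycin point lies below every PD-0325901 and vehicle point, while Rpl39l is high on rapamycin array 1 (9.79) and vehicle array 2 (7.46).

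The 6 members that were higher with rapamycin as a main effect were Rpl7a, Rpl9, Rpl10, Rpl29, Rpl37a and Rpl39l. Rpl37a, a zinc finger protein of the large subunit, had 12.26 and 12.22 with the combination and 12.08 and 12.11 with rapamycin, against 12.02 and 12.13 with PD-0325901 and 12.09 and 12.03 with vehicle. The combination arrays were its highest, and the main effect was 0.10 (SE 0.07, limma adjusted p = 0.910). Rps6, the substrate of S6 kinase, had 13.06 and 13.15 with the combination and 13.08 and 13.12 with rapamycin, against 13.09 and 13.13 with PD-0325901 and 13.23 and 13.10 with vehicle. Its groups overlapped, with a main effect of -0.04 (SE 0.07) on one of the brightest probe sets.

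The rapamycin difference can be read in 2 comparisons that share no array: rapamycin against vehicle, without the MEK inhibitor, and the combination against PD-0325901, with it. In rapamycin against vehicle 53 of 61 members were lower (54.1% of all genes), with a median of -0.13. Without rapamycin array 1 that count was 34 and the median -0.04, and without vehicle array 1 they were 36 and -0.04. In the combination against PD-0325901 55 of 61 were lower (52.1% of all genes), with a median of -0.09. Without combination array 2 that count was 46 and the median -0.06. Both differences were below 0 for 48 of 61 members, against 32% of all genes. Of the 23 small subunit genes this held for 22, all but Rps27l, and of the 38 large subunit and stalk genes for 26. The combination against PD-0325901 does not contain rapamycin array 1 or vehicle array 1.

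**Figure D3:**
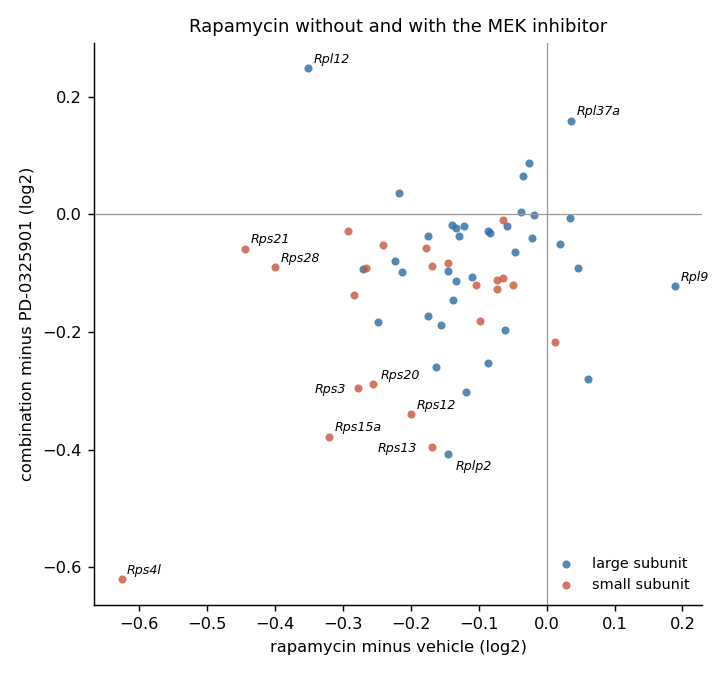
Difference of group means on the log2 scale for the ribosomal protein genes other than Rpl39l, which lies off the scale, rapamycin minus vehicle on the horizontal axis and combination minus PD-0325901 on the vertical axis, with 2 arrays a group and no array in both. Most points lie at the lower left, where both differences are below 0 (48 genes), and Rps4l lies farthest out, at -0.63 and -0.62.

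Among single genes in rapamycin against vehicle, the arrays did not overlap downwards for 16 members (17.9% of all genes) and upwards for 1, Rpl28 (12.5% of all genes). Of these 16, 12 were small subunit genes. Rps28, a small protein near the exit of the message, had 11.96 and 11.96 with rapamycin, against 12.43 and 12.29 with vehicle, a difference of -0.40 (SE 0.11). Rps18 had 12.27 and 12.50 with rapamycin, against 12.75 and 12.61 with vehicle (-0.29, SE 0.11). Their combination arrays overlapped the vehicle arrays, with 12.36 and 12.18 for Rps28 and 12.66 and 12.66 for Rps18. In limma's fit 0 members passed an adjusted p of 0.05 (0% called, smallest adjusted p of a member 0.964), and 5 were lower at an unadjusted p under 0.05, against 2.15% of all genes: Rps4l, Rps15a, Rps18, Rps20 and Rps28. At that p 0 members were higher, against 2.77% of all genes.

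In the combination against PD-0325901 the arrays did not overlap downwards for 24 members (18.2% of all genes) and upwards for 4, Rpl7a, Rpl12, Rpl29 and Rpl37a (16.3% of all genes). Rplp2 had the smallest p, with a difference of -0.41 (SE 0.09, limma adjusted p = 0.9998), followed by Rps4l at -0.62 (SE 0.16), Rps13 at -0.40 (SE 0.11), Rps20 at -0.29 (SE 0.10) and Rps15a at -0.38 (SE 0.13). These 5 were the members at an unadjusted p under 0.05 and all were lower, against 1.27% of all genes lower and 1.74% higher, while 0 passed the adjusted threshold (0% called). Separated downwards in both comparisons were 10 members: Rpl24, Rplp2, Rps3, Rps4l, Rps10, Rps12, Rps13, Rps15a, Rps18 and Rps20. This held for 4.18% of all genes. Of the 10, 8 are small subunit genes.

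The difference between those 2 comparisons is the interaction of the drugs. It had a median of 0.02 over the members and 0.01 over all genes, and of -0.08 over the members without rapamycin array 1. In limma's fit 0 members passed (0% called) and 0 had an unadjusted p under 0.05, against 2.18% of all genes (1.03% higher and 1.14% lower). The smallest p belonged to Rplp2 (-0.26, SE 0.13), Rps28 (0.31, SE 0.16) and Rpl12 (0.60, SE 0.32).

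The combination was also set against vehicle and against rapamycin alone. Against vehicle 49 of 61 members were lower (53.7% of all genes), with a median of -0.10, and against rapamycin 26 of 61 (51.7% of all genes), with a median of 0.04. Against vehicle 0 members passed in limma (0% called). At an unadjusted p under 0.05 Rps15a (-0.39, SE 0.13), Rps4l (-0.44, SE 0.16) and Rplp2 (-0.26, SE 0.09) were lower, 3 members, against 4% of all genes, and 0 members were higher, against 5.08%. The combination and vehicle arrays did not overlap downwards for 21 members (22.3% of all genes) and upwards for 2, Rpl37a and Rps9 (17.9%). Against rapamycin 0 members passed (0% called), and 1 had an unadjusted p under 0.05, Rps28 at 0.31 (SE 0.11), against 3.95% of all genes higher, with 0 members lower, against 2.71%. These arrays did not overlap upwards for 11 members (16% of all genes) and downwards for 6 (15.1%). The vehicle median depended on vehicle array 1: without it the combination's median was -0.02, with 34 of 61 lower. Without rapamycin array 1 the median against rapamycin was -0.07, with 43 of 61 lower. These comparisons share arrays with the ones above.

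PD-0325901 was asked about in the same way. As a main effect, 36 of 61 members were higher and 25 lower (54% of all genes were lower), with a median of 0.02 against -0.01 over all genes. The small subunit had 16 of 23 members higher (median 0.06) and the large subunit with the stalk 20 of 38 (median 0.01). In limma's fit 0 members passed (0% called). At an unadjusted p under 0.05 there was 1 member higher, Rpl13, against 5.47% of all genes, and 0 lower, against 4.14%. Next to it by p came Rps28 at 0.16 (SE 0.08) and Rps10 at 0.14 (SE 0.08), and among lower members Rps19 at -0.14 (SE 0.08). The median turned to -0.04 without rapamycin array 1, and to -0.01 after centring the arrays on their medians. With PD-0325901 as a main effect the 7 endothelial markers were all lower (median -0.51), and the 9 macrophage markers (median 0.54) and 7 T and NK cell markers (median 0.77) all higher; the part of these shifts was not tested.

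Rpl13, a large subunit protein, had 11.59 and 11.39 with the combination and 11.62 and 11.41 with PD-0325901, against 10.81 and 11.13 with rapamycin and 11.44 and 10.77 with vehicle. Vehicle array 1 overlapped the arrays with PD-0325901, and the main effect was 0.46 (SE 0.17, limma adjusted p = 0.484). Rpl10, which joins the large subunit late in its maturation, was the 1 member for which all 4 arrays with PD-0325901 lay beyond the others, below them, where 2.39% of all genes were separated downwards, and 0 members were separated upwards, where 3.34% were. It had 13.25 and 13.25 with the combination and 13.23 and 13.29 with PD-0325901, against 13.31 and 13.39 with rapamycin and 13.34 and 13.29 with vehicle. The gap between arrays with and without PD-0325901 was smaller than that between the arrays of each group other than the combination. The main effect was -0.08 (SE 0.06). PD-0325901 alone against vehicle had a median of 0.01, with 37 of 61 members higher, 0 past the adjusted threshold (0% called) and 0 at an unadjusted p under 0.05 in either direction (5.84% of all genes, 3.47% higher and 2.38% lower). The arrays did not overlap upwards for 9 members (17.6% of all genes) and downwards for 6 (20.9%). The direction turned on the vehicle arrays: the median was 0.08 with 16 of 61 members lower without vehicle array 1, and -0.08 with 42 of 61 lower without vehicle array 2. The smallest p belonged to Rps13, at 0.20 (SE 0.11), and among lower members to Rps19, a small subunit protein mutated in human Diamond-Blackfan anaemia, at -0.18 (SE 0.11).

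Several members are variants with a limited range of tissues. Rpl39l, a copy of Rpl39 known from testis and some tumours, had 5.96 and 6.03 with the combination, 9.79 and 5.97 with rapamycin, 6.04 and 5.95 with PD-0325901, and 6.12 and 7.46 with vehicle. It was high on rapamycin array 1, intermediate on vehicle array 2 and alike on the other 6 arrays. No group was high as a whole, and the rapamycin main effect of 0.54 had an SE of 0.83. Rapamycin array 1 is the array on which the members as a whole lay lowest.

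Rpl3l, a form of Rpl3 found in striated muscle, had 6.69 and 6.63 with the combination, 6.69 and 6.87 with rapamycin, 6.68 and 6.73 with PD-0325901 and 6.81 and 6.72 with vehicle. Its highest value was on rapamycin array 2, where the 8 skeletal muscle markers had a median deviation of 1.77, against -0.69 to 0.59 on the other arrays, with the creatine kinase Ckm at 10.91. Rpl10l, which stands in for Rpl10 in male germ cells, had 7.91 and 7.75 with the combination, against 8.06 and 8.15 with PD-0325901, a difference of -0.28 (SE 0.16). Its values with rapamycin alone were 8.21 and 8.12, against 8.32 and 7.88 with vehicle.

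Rps27l, a paralog of Rps27 that p53 induces, had 10.97 and 10.53 with the combination and 10.95 and 11.25 with rapamycin, against 11.17 and 10.77 with PD-0325901 and 11.29 and 10.88 with vehicle. All groups overlapped. Rpl7l1, which works in the making of the large subunit, had a rapamycin main effect of -0.12 (SE 0.12), beside -0.09 (SE 0.11) for its relative Rpl7. Rpl22 had -0.18 (SE 0.11) and Rpl36a -0.11 (SE 0.12), and the variants Rps23rg1 and Rpl32l had -0.09 (SE 0.09) and -0.05 (SE 0.07). Of the 8 variants (Rpl3l, Rpl7l1, Rpl10l, Rpl32l, Rpl39l, Rps4l, Rps23rg1 and Rps27l) 7 were lower in the rapamycin main effect (median -0.09), and so were 48 of the 53 other members (median -0.12).

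Rps14, whose loss of a copy causes anaemia in a human blood disease, had the widest range of the members other than Rpl39l. Its values were 11.62 and 11.59 with the combination, 10.77 and 11.98 with rapamycin, 11.52 and 11.86 with PD-0325901 and 11.74 and 11.55 with vehicle. The rapamycin arrays were its lowest and its highest, so its main effect of -0.18 (SE 0.27) rests on arrays that differ by more than any 2 groups. Rps7 had the same order on these arrays, with 11.58 and 12.31. Rpl5, part of the particle with 5S RNA that binds Mdm2, had 12.37 and 12.48 with the combination, against 12.59 and 12.64 with vehicle, a difference of -0.19 (SE 0.12). Its values were 12.35 and 12.61 with rapamycin alone and 12.42 and 12.50 with PD-0325901 alone.

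Many ribosomal protein genes have further probe sets, which the highest-mean rule did not use. The 61 genes had 213 single-symbol probe sets, 38 genes had more than 1, and Rps12 had 14. Of the 213, 19 shared identical values with another, so that 201 were distinct. For the rapamycin main effect 140 of the 152 unused probe sets were lower, with a median of -0.12, and the median of the unused ones had the sign of the used one in 38 of 38 genes. For the PD-0325901 main effect 64 of the 152 were lower, with a median of 0.03, and the signs matched in 36 of 38 genes. Ribosomal protein genes have many processed pseudogenes, so their probe sets can share targets and are no independent measurements.

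Other messages with a TOP element and genes that act on them were read from lists drawn from textbook knowledge. Of 29 other TOP messages 23 were measured, and 16 of them were lower in the rapamycin main effect (median -0.05), where 53.8% of all genes were lower. Npm1, a nucleolar chaperone of ribosome assembly, had 11.20 and 11.19 with the combination and 10.89 and 11.49 with rapamycin, against 11.74 and 11.61 with PD-0325901 and 11.95 and 11.61 with vehicle. Npm1 was the 1 of these 23 for which the arrays with rapamycin lay below all others, where 1.94% of all genes were separated downwards. Its main effect was -0.53 (SE 0.16, limma adjusted p = 0.774), and its rapamycin arrays lay further apart than that. Rpsa and Fau, ribosomal proteins whose symbols the rule does not match, had main effects of -0.02 (SE 0.10) and -0.01 (SE 0.09). The elongation factor subunit Eef1b2 had -0.10 (SE 0.08) and the histone chaperone Nap1l1 -0.34 (SE 0.14).

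Of 20 regulators of TOP messages and of Rps6, 16 were measured, with a median of -0.03 for rapamycin (9 lower) and -0.22 for PD-0325901 (12 lower). Of all genes 53.8% and 54% were lower in these main effects. Eif4e, the cap-binding factor, had a rapamycin main effect of -0.35 (SE 0.14), and Larp1, which binds the TOP element, one of -0.25 (SE 0.15). With PD-0325901 the 4E-BP gene Eif4ebp2 had -0.27 (SE 0.08, limma adjusted p = 0.378), with all 4 arrays below the others, Larp4 -0.51 (SE 0.17) and Myc, an activator of ribosome production, -0.43 (SE 0.19). None of the 16 passed the adjusted threshold in either main effect. Of 11 genes of the p53 response to ribosome stress 8 were measured, with medians of 0.10 and -0.05 and 0 past the threshold. The mice carry a Trp53 mutation, and whether these genes report p53 activity here was not tested. Of all genes 3.34% had the 4 arrays with PD-0325901 above the others and 2.39% below them. Sesn1 was higher on all 4 arrays with PD-0325901, at 10.49 ± 0.23 against 9.73 ± 0.26 (SD; difference 0.75, SE 0.15, limma adjusted p = 0.205). Eda2r was lower on all 4 of these arrays, at 7.27 ± 0.25 against 8.13 ± 0.67 (difference -0.86, SE 0.34, limma adjusted p = 0.497), and Phlda3 averaged 9.71 ± 0.40 against 10.33 ± 0.60, with overlapping arrays (difference -0.62, SE 0.24, limma adjusted p = 0.487).

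**Figure D4:**
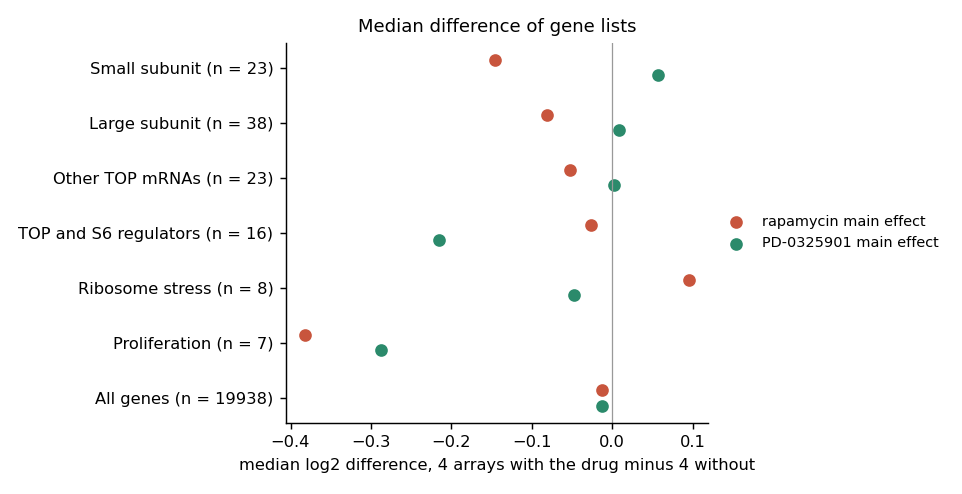
Median log2 difference of each gene list for the rapamycin (red) and PD-0325901 (green) main effects, each 4 arrays with the drug minus 4 without it. The small subunit genes have medians of -0.15 with rapamycin and 0.06 with PD-0325901, and all genes one of -0.01 for either. The proliferation markers have -0.38 and -0.29, with unlike rapamycin arrays (median deviations of -0.66 on array 1 and 0.42 on array 2).

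Lists of other cells and of the cell cycle moved beside these values. With rapamycin as a main effect the 7 proliferation markers had a median of -0.38, all lower. Their summed log2 levels were 69.0 to 69.9 on the combination arrays and 66.5 to 73.7 on the rapamycin arrays, against 69.5 to 72.4 with PD-0325901 and 73.8 to 73.8 with vehicle. The rapamycin arrays were unlike, with median deviations of -0.66 (array 1) and 0.42 (array 2). The 8 muscle markers had a median of 0.57, all higher, which rests on unlike arrays: their sums were 64.4 to 72.3 with the combination and 61.3 (array 1) and 81.1 (array 2) with rapamycin, against 64.8 to 66.8 with PD-0325901 and 61.5 to 68.1 with vehicle. The 4 erythroid markers had -0.38, all lower, with sums of 29.0 to 30.2 with the combination and 29.6 to 30.5 with rapamycin, against 29.4 to 36.04 with PD-0325901 and 29.7 to 30.3 with vehicle. The T and NK cell markers had a median of -0.05 (4 of 7 lower) and the macrophage markers one of -0.19 (7 of 9 lower). Their part in the rapamycin difference of the ribosomal protein genes was not tested.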

How the data were processed

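Per the labels' protocols, tumour RNA was extracted with Trizol and RNeasy, then amplified by a whole-transcript kit (NuGEN Applause WT-Amp ST) before biotin labelling. The values are the log2 intensities of 35512 probe sets in the table that the authors deposited. Its log base was read from the values, since the highest, 14.36, exceeds the natural log of a 16-bit reading (11.09) but not its log2 (16.00). How background and array differences were treated upstream is not given in the sources used here, and scanner files were not used. Of the probe sets 21789 name 1 gene, and the one with the highest mean stood for each of 19938 genes. Means of 4 groups of 2 arrays were fitted with limma 3.58.1 in R 4.3.3, which was tested on simulated data. Differences were read in 8 comparisons, with Benjamini-Hochberg adjustment over all genes and a threshold of 0.05. Exact permutation of 2 arrays against 2 cannot go below p = 0.333. An adjusted p is limma's throughout. Arrays of 2 groups do not overlap where every value of one lies beyond every value of the other. Named genes were those with the smallest p per direction, the brightest, dimmest, most and least variable, Rps6, the stalk and the paralogs with their partners; Rps7, Rps10, Rps18, Rps21, Rps28 and Rpl5 beyond that rule were chosen after their values were seen. The members and lists were chosen with earlier results of these data known. Alternatives covered scaling, probe set choice, a filter on low levels, the variance prior, the threshold, the samples fitted, the array number as a block and leaving out each array.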

Additional observations from a re-analysis of the deposited data

How the results depend on the processing

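In limma's fit 0 ribosomal protein genes passed the threshold in any of the 8 comparisons, and this count stayed 0 under each alternative that was run; for the rapamycin main effect a member's smallest adjusted p lay between 0.231 and 0.99996. The median difference of the members kept its sign in rapamycin against vehicle, the combination against vehicle, the combination against PD-0325901 and the rapamycin main effect under each alternative run. Leaving out 1 array at a time, the median ranged from -0.2549 to -0.038 in rapamycin against vehicle, from -0.0745 to 0.1412 in the combination against rapamycin, and from -0.0803 to 0.1217 in the interaction. It ranged from -0.08 to 0.08 in PD-0325901 against vehicle, from -0.10 to -0.06 in the combination against PD-0325901, from -0.18 to -0.05 for the rapamycin main effect and from -0.04 to 0.09 for the PD-0325901 main effect. With quantile normalization, median centring, other probe sets, a filter or other samples, the rapamycin main effect stayed between -0.12 and -0.09 and the PD-0325901 main effect between -0.01 and 0.04. The array numbers do not pair the samples: deviations of same-numbered arrays correlated between -0.28 and 0.18 over 6 pairs of groups. With the array number as a replicate block 0 members passed, and the median of the rapamycin main effect was -0.11. A fit of only the groups compared was not possible for the interaction. With 2 arrays a group, the number of arrays limits what can be told apart.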
